A study of Homo sapiens with 7 samples.

Results

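The 4E-BP translation repressors are the 3 genes EIF4EBP1, EIF4EBP2 and EIF4EBP3, chosen by name among 20037 annotated protein-coding genes. A peak was assigned to a gene when its centre lay inside the gene span or within 10 kb of it. The cells were DLD-1, an established human colon adenocarcinoma line, infected with a retrovirus for MycER, a fusion of MYC to part of the estrogen receptor that is switched on by 4-hydroxytamoxifen (4-OHT). By chromatin immunoprecipitation and sequencing (ChIP-seq), ATF4 was profiled in 2 libraries after 8 hr of MYC activation with 500 nM 4-OHT and in 2 control libraries, which the protocol describes as vehicle, and MYC in 2 libraries after 8 hr of activation. All groups carried MycER, and no group had 4-OHT without MycER, so an effect of 4-OHT itself and MYC activation cannot be told apart. Nothing in the labels ties the replicates to separate cultures, and p-values then measure only the spread between these libraries, which may be technical. The MYC libraries do not tell MycER from the cells' own MYC. The labels list no MYC library from control cells, so MYC binding with and without activation could not be compared. The 1 IgG library was not analysed here as a peak list, and peak lists hold no expression with which to check the cell type.

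The 4E-BPs are small proteins that bind the cap-binding protein eIF4E and keep it from the scaffold eIF4G, which blocks cap-dependent translation. The kinase complex mTORC1 phosphorylates them, which releases eIF4E. ATF4 is a transcription factor that cells make when eIF2alpha is phosphorylated during stress or amino acid shortage, and EIF4EBP1 is a known ATF4 target. MYC is a growth factor-responsive transcription factor that binds the E-box CACGTG with MAX and is known to raise the output of the translation machinery.

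Among the 3 genes, EIF4EBP1 alone had ATF4 peaks, and it had them in each of the 4 ATF4 libraries. It also had 3 MYC peaks in each MYC library. EIF4EBP2, the 4E-BP best known from brain, had 1 weak MYC peak in 1 library. EIF4EBP3, a further repressor with the same eIF4E-binding role, had no peak within 10 kb in any of the 6 libraries. Thus 1 of the 3 genes had a peak in activated ATF4 replicates 1 and 2, where 4.28% and 7.76% of all genes had one, and 1 of 3 in control replicates 1 and 2, against 2.95% and 5.37% of all genes. In MYC replicate 1 it was 1 of 3, against 29.7% of all genes, and in MYC replicate 2 it was 2 of 3, against 59.5%.

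No promoter start was matched for EIF4EBP1, the only member with ATF4 peaks, so its sequence was not searched for motifs. The sequences before the transcription starts of EIF4EBP2 and EIF4EBP3 are shown because they differ in the E-box and neither carried a peak. EIF4E, the partner that the 4E-BPs bind, is shown beside them as a gene with E-boxes and a MYC peak there, and was chosen after its values were seen. Each is 250 bases of GRCh38.p14 from RefSeq, 5′ to 3′ on the gene's strand up to the base before the start. Capitals mark CACGTG and the cyclic AMP response element core TGACGT, each searched on both strands. TGACGT reads ACGTCA on the other strand.
EIF4EBP2 (chr10:70403895-70404144, plus strand): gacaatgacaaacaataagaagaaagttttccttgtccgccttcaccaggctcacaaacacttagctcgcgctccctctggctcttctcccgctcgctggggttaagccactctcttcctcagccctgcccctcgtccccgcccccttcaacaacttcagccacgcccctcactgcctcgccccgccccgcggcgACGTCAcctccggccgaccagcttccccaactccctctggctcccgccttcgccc
EIF4EBP3 (chr5:140547412-140547661, plus strand): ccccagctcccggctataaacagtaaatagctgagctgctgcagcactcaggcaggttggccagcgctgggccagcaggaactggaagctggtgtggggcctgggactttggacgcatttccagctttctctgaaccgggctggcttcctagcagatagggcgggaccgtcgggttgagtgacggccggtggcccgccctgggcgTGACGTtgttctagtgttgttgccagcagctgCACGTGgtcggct
EIF4E (chr4:98929134-98929383, minus strand): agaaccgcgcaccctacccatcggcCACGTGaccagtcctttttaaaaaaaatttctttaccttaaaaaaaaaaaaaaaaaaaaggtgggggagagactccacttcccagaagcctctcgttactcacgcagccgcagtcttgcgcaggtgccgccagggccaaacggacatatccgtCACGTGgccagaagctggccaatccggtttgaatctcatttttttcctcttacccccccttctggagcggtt

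EIF4EBP3 held CACGTG 13 bp and TGACGT 45 bp before its start. EIF4EBP2 held the TGACGT core 55 bp before its start and no CACGTG in this window. EIF4E held CACGTG at 225 and 72 bp before its start. The motif TGATGNAA, a form of the element that ATF4 binds with C/EBP partners, was in none of these windows. Of 15843 promoter windows of this length, 7.84% held CACGTG, 8.67% held TGACGT and 2.21% held TGATGNAA. Neither motif overlaps another in these windows, and a match describes the letters only.

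EIF4EBP1 (chromosome 8, 38030534 to 38060365, hg38) had 1 ATF4 peak in each ATF4 library. Its values are the authors' normalized tag counts, that is reads per 10 M of the library, called tags here. The peak had 12.0 tags in activated replicate 1 and 19.7 in activated replicate 2, against 10.7 in control replicate 1 and 10.1 in control replicate 2. Both activated values lay above both control values, and activated replicate 2 stood apart from the other 3 libraries. The 4 peak centres lay 989 and 977 bp (activated) and 988 and 999 bp (control) inside the gene from its low-coordinate end, which is the end where this gene is transcribed from. The place of the peak therefore varied by no more than 22 bp across the 4 libraries, and the merged ATF4 region covered 38031409 to 38031639 on chromosome 8.

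**Figure D1:**
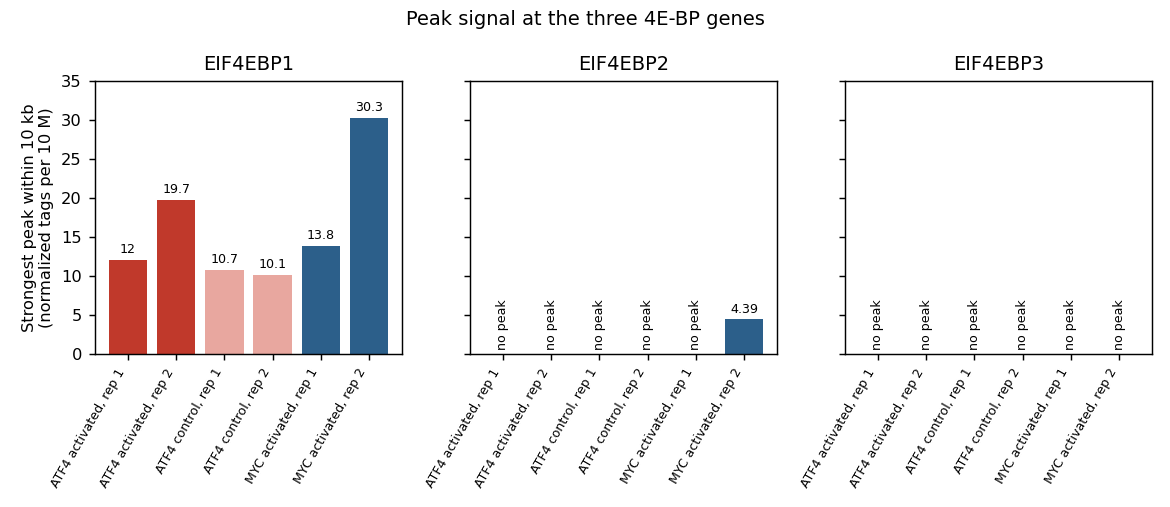
Strongest peak within 10 kb of each 4E-BP gene (vertical axis, normalized tags per 10 M) in the 6 libraries (horizontal axis; red, ATF4 activated; pale red, ATF4 control; blue, MYC activated). EIF4EBP1 had a peak in each library, from 10.1 to 30.3 tags, EIF4EBP2 in MYC replicate 2 only (4.39) and EIF4EBP3 in none.

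A peak in both activated ATF4 libraries within 10 kb was found at 345 of 20037 genes (1.72%), a peak in both control libraries at 155 (0.774%), and a peak in all 4 at 104 (0.519%). By the mean of the strongest peak, EIF4EBP1 ranked 21 of the 345 genes in activated cells and 27 of the 155 in control cells. The medians over those genes were 6.33 tags in activated and 5.56 in control cells, against 15.85 and 10.4 at EIF4EBP1. Within the lists, the peak ranked 111 of 1270 in activated replicate 1 and 14 of 2231 in activated replicate 2, and 113 of 916 in control replicate 1 and 35 of 1579 in control replicate 2. Peaks under 4-fold over background ranked above it in both replicate 1 lists and in control replicate 2, and not in activated replicate 2. Among peaks of at least 4-fold over background, it ranked 37 of 812 and 14 of 1230 in activated, and 26 of 515 and 16 of 650 in control replicates 1 and 2.

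The authors' fold over the background library at this peak was 17.35 and 17.05 in activated replicates 1 and 2, against 15.46 and 8.78 in control replicates 1 and 2. Their fold over the surroundings was 10.64 and 13.6 in activated, against 7.76 and 7.3 in control replicates 1 and 2. In replicate 1 these values rested on few reads, 30 tags in the activated library and 24 in the control library. The exact 95% Poisson intervals, which cover counting error only, were 8.10 to 17.1 tags in activated and 6.86 to 15.9 tags in control replicate 1. The intervals overlapped, which is not a test of the difference, and the difference within replicate 1 alone was not tested. Depth followed the replicate number, with 21.04 to 24.95 M tags in the replicate 1 libraries and 49.75 to 50.28 M in the replicate 2 libraries.

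Whether ATF4 signal differed with MYC activation was tested by limma at the 105 regions where each of the 4 ATF4 libraries had a peak, on log2(tags + 1). EIF4EBP1 averaged 15.85 ± 5.44 tags in activated and 10.4 ± 0.424 in control cells (SD, n = 2 each), which is a log2 change of 0.53 (standard error 0.29, 95% interval -0.04 to 1.10). It did not pass, with a limma p of 0.0705 and an adjusted p of 0.125 over the 105 regions. In the same fit 39 regions were higher (37.1%) and 0 lower, and in 77 regions (73.3%) both activated libraries lay above both control libraries, as they did at EIF4EBP1. The 39 calls do not hold across settings: 0 regions were higher with a replicate block and 0 without any 1 of the 4 libraries, and centring each library on its median gave 0 higher and 9 lower. EIF4EBP1 ranked 55 of 105 by the size of its change, and the median change of all these regions was 0.54. Its ATF4 level was high among them, at rank 20 in activated and 25 in control cells by mean tags.

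The replicate numbers gave different sizes for the change at EIF4EBP1. It was 0.15 within replicate 1 and 0.90 within replicate 2 on the log2 scale, where the medians of the 105 regions were 0.37 and 0.74. The 2 activated libraries differed by 0.67 at EIF4EBP1 (replicate 2 minus replicate 1), the 9th largest such difference of the 105, where the median was 0.11. Without activated replicate 2 the change was 0.19 (limma adjusted p = 0.696), and without activated replicate 1 it was 0.86 (limma adjusted p = 0.192). When each library was centred on its median over the regions, the change at EIF4EBP1 was -0.12 (limma adjusted p = 0.830), and the median change of all regions was -0.11 in place of 0.54. Relative to the typical common ATF4 region, EIF4EBP1 therefore did not stand out in its change.

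**Figure D2:**
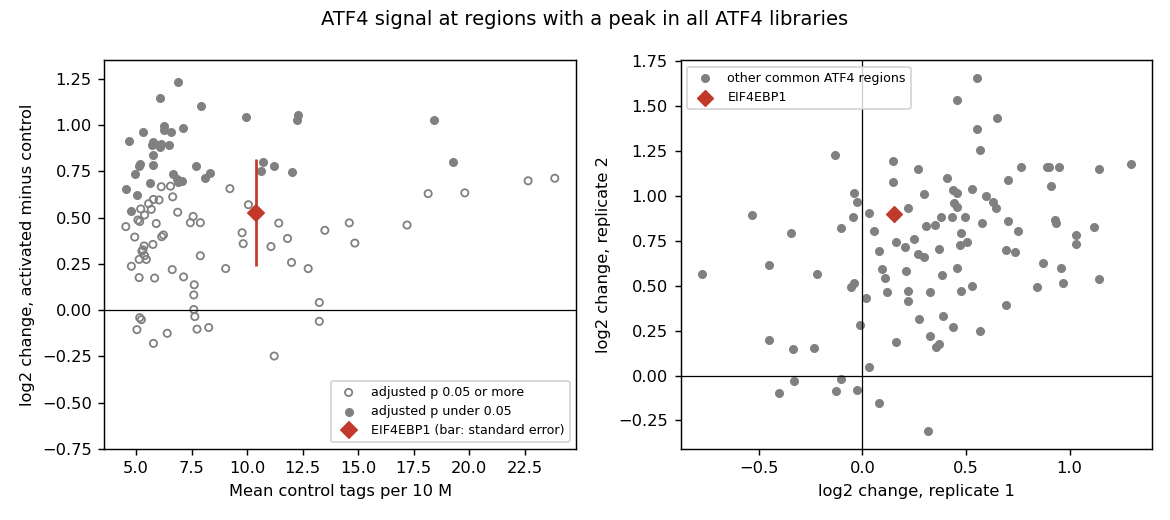
Left, log2 change in ATF4 tags (activated minus control, vertical axis) against mean control tags per 10 M for the 105 regions called in each of the 4 ATF4 libraries; filled grey points had a limma adjusted p under 0.05, and the red diamond with its standard error is EIF4EBP1 (0.53). Right, the change within replicate 1 (horizontal axis) and replicate 2 (vertical axis), where EIF4EBP1 lies at 0.15 and 0.90.

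MYC was found at 3 places inside EIF4EBP1, each with a peak in both MYC libraries. The strongest lay nearest to the start, 469 and 457 bp from the low end, with 13.8 tags in replicate 1 and 30.3 in replicate 2. The next lay 1188 and 1048 bp from the low end, with 11.9 and 23.9 tags in replicates 1 and 2. The last lay about 11 kb into the gene, at 10996 and 11010 bp, with 12.4 and 18.4 tags in replicates 1 and 2. Their means were 22.05 ± 11.7, 17.9 ± 8.49 and 15.4 ± 4.24 tags (SD, n = 2). Each SD includes the higher tags of replicate 2 at every place, so it does not measure the spread of their order. The place nearest to the start was the highest in each library, and the order was not tested. In replicate 1 alone the order of the last and the middle place was the other way round, 12.4 against 11.9 tags.

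All 6 of these MYC peaks were well over background by the authors' fold, from 8.57 to 59.68 in replicate 1 and from 34.56 to 65.66 in replicate 2. In replicate 2, the peak nearest to the start ranked 56 of 22532, and in replicate 1 it ranked 342 of 8636. MYC peaks within 10 kb were found in both libraries at 5690 of 20037 genes (28.4%), and 3 or more in both libraries at 485 genes (2.42%), EIF4EBP1 among them. By the mean of its strongest peak EIF4EBP1 ranked 129 of the 5690 genes, with 22.05 tags where the median gene had 7.98.

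**Figure D3:**
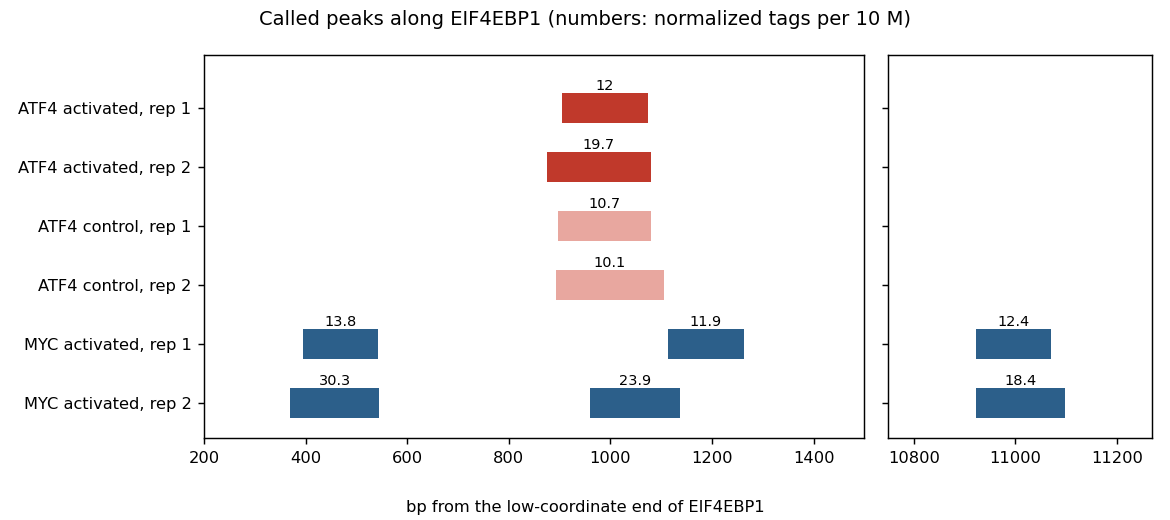
Peaks along EIF4EBP1 by distance in bp from the low-coordinate end of the gene (horizontal axis, in 2 stretches), 1 row per library, with the normalized tags per 10 M above each peak. The ATF4 peaks of the 4 libraries stack between 977 and 999 bp, between a MYC peak at 457 to 469 bp and another at 1048 to 1188 bp.

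The ATF4 peak and the middle MYC peak overlapped with 1 MYC library and not with the other. The MYC replicate 2 peak shared 115 bp with the ATF4 peak of activated replicate 1 and 120 bp with that of activated replicate 2, and 121 and 146 bp with those of control replicates 1 and 2. Its centre lay 49 to 71 bp farther into the gene than the ATF4 centres. The MYC replicate 1 peak shared no base with an ATF4 peak. It began 39 and 34 bp beyond the activated ATF4 peaks of replicates 1 and 2 and 33 and 8 bp beyond the control peaks, with its centre 189 to 211 bp farther into the gene than the ATF4 centres. The centres of the MYC peaks themselves lay 140 bp apart here and the 2 peaks shared 23 bp, whereas the MYC centres lay 12 and 14 bp apart at the other 2 places. The sharing at EIF4EBP1 therefore rests on MYC replicate 2 and on the merging of the MYC peaks into 1 region.

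Of 352 ATF4 regions with a peak in both activated libraries, 65 (18.5%) shared at least 1 bp with a MYC region found in both MYC libraries. Counted peak by peak over the 352 regions, an overlap was present in 2 of the 4 pairings of an ATF4 with a MYC library at 85 regions (24.1%), EIF4EBP1 among them, and in all 4 pairings at 59 (16.8%). An overlap in 2 of the 4 pairings was therefore common over the 352 regions, which include those without a MYC region found in both libraries. It was not common among the 65 regions that shared bases with such a MYC region. Of these 65, 59 had an overlap in all 4 pairings, 3 in 3 pairings and 2 in 1 pairing. EIF4EBP1 was the only 1 with an overlap in 2 pairings. The median distance from the 352 regions to the nearest MYC centre was 48892 bp, and 84 (23.9%) lay within 1000 bp. At EIF4EBP1 it was 134 bp, rank 60 from the nearest.

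At EIF4EBP1 the ATF4 site lay between MYC sites, with the MYC centre on the side of the start 508 to 532 bp away from the ATF4 centres of activated and 519 to 542 bp from those of control libraries. It was the 1 region of the 352 (0.284%) with a MYC centre within 1000 bp on both sides, a property chosen after its values were seen. Within 500 bp the count was 0, within 2000 bp it was 2 and within 5000 bp it was 6, EIF4EBP1 among the last 2 counts. A single MYC region that covers an ATF4 site has its centre on 1 side of it, so this count describes pairs of separate MYC regions.

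EIF4EBP2 (chromosome 10, 70404145 to 70428618) had no ATF4 peak within 10 kb in any of the 4 libraries. Its 1 MYC peak lay inside the gene in MYC replicate 2 (70425052 to 70425228), 20995 bp past the start and 3478 bp before the high end, with 4.39 tags and a fold over background of 3.8. It ranked 12926 of 22532 in its list. MYC replicate 1 had no peak there. A MYC peak in replicate 2 and none in replicate 1 was found at 6233 of 20037 genes (31.1%), so this state is common in these lists. The peak lay 6796 bp from NODAL, a growth factor of early embryos, the only other annotated gene within 10 kb of it.

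The value of 4.39 tags lay under 4.46, the highest of the lowest tag counts listed in the 6 libraries, which is that of ATF4 control replicate 1. It lay above 3.8, the lowest tag count listed in MYC replicate 1. Beyond 10 kb, the nearest MYC peaks were 32874 bp away in replicate 1 (4.75 tags, inside PALD1, a phosphatase-like protein) and 21425 bp away in replicate 2 (2.79 tags). The strongest MYC peaks within 50 kb of the gene had 11.4 tags in replicate 1 and 15.4 in replicate 2. The nearest ATF4 peak was 65404 bp away in activated replicate 1 (4.41 tags) and 1241978 bp away in activated replicate 2, and 1844280 and 1844299 bp away in control replicates 1 and 2. Apart from that 1 peak of activated replicate 1, no ATF4 peak lay within 100 kb of EIF4EBP2.

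EIF4EBP3 (chromosome 5, 140547662 to 140549576) has a span of 1.92 kb, against 24.5 kb for EIF4EBP2 and 29.8 kb for EIF4EBP1, so the same 10 kb margin covers less DNA. It lies at the end of the read-through gene ANKHD1-EIF4EBP3 and 491 bp from SRA1, a gene with coding and non-coding RNA forms. It had no peak within 10 kb in any library, a state it shared with 7322 of 20037 genes (36.5%). The E-box 13 bp before its start thus carried no called MYC peak. Such a state is common, since of 1242 promoter windows with CACGTG 123 (9.9%) overlapped a MYC region found in both libraries. Windows with a MYC region held CACGTG more often as a description, 123 of 632 (19.5%) against 1119 of 15211 without (7.36%).

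The nearest MYC peak to EIF4EBP3 in replicate 2 was 15197 bp beyond its span (7.78 tags) at the facing ends of APBB3, an adaptor of the amyloid precursor protein, and SLC35A4, a solute carrier family gene. MYC replicate 1 had none there. The nearest in MYC replicate 1 lay 146350 bp before the span, 521 bp from the start of ANKHD1-EIF4EBP3 (4.28 tags), and replicate 2 had a peak 1105 bp from that start (5.99 tags), whose span did not overlap that of replicate 1. In ATF4 libraries the nearest peaks were 287908 bp away in activated replicate 1 (8.42 tags, near PFDN1, a prefoldin subunit) and 96050 bp away in activated replicate 2 (3.42 tags), and 287965 and 287925 bp away in control replicates 1 and 2 (5.8 and 5.77 tags).

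The proteins that act with the 4E-BPs were taken from a list of 25 genes of the eIF4F cap complex and mTORC1. A peak in both activated ATF4 libraries was present at 1 of 25 (4%, against 1.72% of all genes) and in both control libraries at 0 of 25 (against 0.774%). Counting any 1 library, it was 2 of 25 and 3 of 25 in activated replicates 1 and 2 (8% and 12%, against 4.28% and 7.76% of all genes), and 0 and 2 of 25 in control replicates 1 and 2 (0% and 8%, against 2.95% and 5.37%). The 1 gene was MLST8, an mTORC1 subunit, with 4.41 tags in activated replicate 1, 3.82 in activated replicate 2 and no peak in either control library. At 1370 and 1484 bp inside MLST8, these peaks had a fold over background of 3.82 and 3.31. Both tag counts lay under 4.46, the lowest value listed in control replicate 1, and above 2.98, the lowest listed in control replicate 2. MLST8 also had a MYC peak at 493 and 502 bp inside the gene, with 6.18 and 10.2 tags in replicates 1 and 2. ATF4 at EIF4EBP1 had 12.0 and 19.7 tags in the same activated libraries.

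MYC was found at 13 of the 25 genes in both libraries (52%, against 28.4% of all genes). The median span of the 25 was 32956 bp and that of all genes 24115 bp, and longer spans have more room for a peak, whose part in the share was not tested. Among the 13, the median strongest peak was 9.03 tags in MYC replicate 1 and 18.2 in replicate 2, against 6.18 and 9.58 over the 5690 genes with a MYC peak in both. By role, both eIF4A helicases of the list had one, as did 1 of 3 cap-binding proteins, 1 of 3 eIF4G scaffolds, 1 of 2 helicase cofactors, 3 of 6 other binders, 1 of 2 eIF4E kinases and 4 of 7 mTORC1 genes. The peaks of the helicase gene EIF4A2 were weak, with 4.28 and 4.59 tags in MYC replicates 1 and 2. Their fold over background was 3.09 and 3.31.

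**Figure D4:**
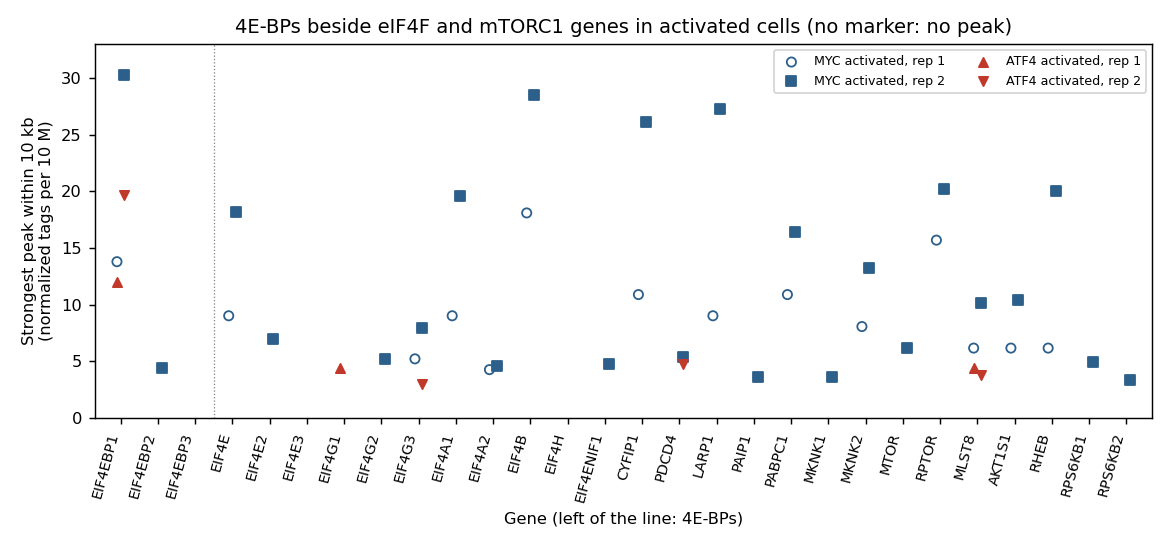
Strongest peak within 10 kb (vertical axis, normalized tags per 10 M) in activated cells at the 3 4E-BP genes and at 25 eIF4F and mTORC1 genes (horizontal axis); circles and squares are MYC replicates 1 and 2, triangles up and down ATF4 replicates 1 and 2, and no marker means no peak. EIF4EBP1 has the highest MYC value of replicate 2 (30.3) and the highest ATF4 values of both replicates among these genes.

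The strongest MYC peaks of the list lay at several kinds of places. EIF4B, a cofactor of the eIF4A helicase, had 18.1 and 28.5 tags in MYC replicates 1 and 2 at 728 and 677 bp past its start. EIF4A1, the helicase itself, had 9.03 and 19.2 tags at 301 and 308 bp before its start, where SENP3 also lies, 7.13 and 14.2 tags at 830 and 818 bp past it, and 9.03 and 19.6 tags at MPDU1, 4663 and 4636 bp beyond its span.
CYFIP1, an eIF4E binder that also belongs to the actin-regulating WAVE complex, had 10.9 and 26.1 tags deep in the gene, at 76616 and 76628 bp past its start. LARP1, which binds mRNAs of the translation machinery under mTORC1, had 9.03 and 27.3 tags at 71995 and 71992 bp past its start. RPTOR, the mTORC1 subunit that recruits the 4E-BPs, had 15.7 and 20.2 tags at 30713 and 30729 bp, and weaker peaks 37 and 49 bp before its start (6.18 and 7.78 tags).

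EIF4E had MYC peaks in both libraries at 3 places around its start. The 1 before the start had 5.7 and 9.78 tags in MYC replicates 1 and 2, and in both libraries it covered the E-box that lies 225 bp before the start. The E-box 72 bp before the start lay outside the called peaks. Past the start, EIF4E had 6.18 and 18.2 tags at 261 and 292 bp and 9.03 and 14.6 tags at 941 and 838 bp. EIF4E had no ATF4 peak within 10 kb, and its nearest one in activated cells lay 1020062 and 1020056 bp away in replicates 1 and 2. The cap-binding protein and its repressor EIF4EBP1 thus shared MYC peaks past the start in both libraries, and ATF4 peaks were called at the repressor alone.

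Of all genes, 66 of 20037 (0.329%) had a peak within 10 kb in all 6 libraries, EIF4EBP1 among them. The genes most like EIF4EBP1 in the strongest peak of each of the 6 libraries, by Euclidean distance on log2(tags + 1), were ARHGAP23 (0.582), NRSN2 (0.670), GSE1 (0.877), and LSM10 and STK40 (0.971 each), the last 2 of which share the peaks compared. ARHGAP23 had 11.2 and 15.5 ATF4 tags in activated and 11.6 and 7.95 in control replicates 1 and 2, and 16.2 and 25.1 MYC tags. GSE1, a chromatin-associated protein, had 18.8 and 19.7 ATF4 tags in activated and 12.1 and 9.34 in control replicates 1 and 2, and 21.4 and 28.7 MYC tags. Likeness here means similar peak strength over these 6 libraries of 1 cell line, and the ATF4 peaks of ARHGAP23, NRSN2, LSM10 and STK40 lay outside their spans.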

How the data were processed

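Peak lists of 6 ChIP-seq libraries were used, 1 per library, mapped to hg38 with Bowtie 0.12.9 and HOMER named per the submitters' processing notes, without settings. The deposited normalized tag count is a signal, expressed by the authors per 10 M tags of a library. Further deposited columns are the focus ratio, a fraction that was not used, the fold (a ratio) over a background library that the file headers do not name and over the surroundings, and a p-value for each. Per the file headers, total tags are a raw count in replicate 1 and a signal scaled to background depth in replicate 2. Folds and p-values are the authors' own and only describe or filter peaks.

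Gene spans came from RefSeq GRCh38.p14, and starts from its promoter table, which matched 2 of the 3 members (EIF4EBP2 and EIF4EBP3). ATF4 peaks sharing at least 1 bp were merged, and a library's strongest peak stood for a region. Common regions were tested with limma 3.58.1 (R 4.3.3) on log2(normalized tag count + 1), where the added 1 understates the change of weak peaks. The fit used a variance trend and Benjamini-Hochberg adjustment over all common regions with a threshold of 0.05. The fit was also run on simulated data with larger changes than those seen here, in both directions. That run checks the code and not the power to detect a change at these regions. Depth was read from tag counts in replicate 1 and from steps between low values in replicate 2. Replicate 2 values are rounded, so no whole tags were used and a planned count test was not run. Genes named from the 25-gene list were those with ATF4 in both libraries of a condition and the 5 with the strongest mean MYC peak. EIF4E and EIF4A2 were added after their values were seen. The members and lists were chosen with earlier results of these data known.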

Additional observations from a re-analysis of the deposited data

How the results depend on the processing

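The ATF4 change at EIF4EBP1 stayed positive and short of the threshold in the fit with a replicate block (0.53, limma adjusted p = 0.179), with pseudocounts of 0.5 and 5 (0.54 and 0.41), with regions merged at 50% of the shorter peak and with only peaks at 4-fold or more over background (0.53 in both), and ranged from 0.19 to 0.86 when each library was left out. Centring each library on its median reversed it to -0.12. The number of regions called higher, 39, was 0 with the replicate block, 0 after centring (with 9 lower) and 0 without any 1 of the 4 libraries, a fit in which the 1 remaining library of a group takes its spread from the other group. At an unadjusted limma p under 0.05, 57 were higher and 0 lower in the main fit. With the block 37 were higher and 0 lower, and after centring 2 were higher and 18 lower. The cause of these differences was not tested. The replicate numbers are not known to pair the samples, and with 2 pairs the correlation of replicate deviations across regions was 0.10.

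Within 50 kb, 2 members had a peak in MYC replicate 1 in place of 1. At that distance 20 of 25 eIF4F and mTORC1 genes had MYC peaks in both libraries in place of 13. The share of all genes within 50 kb was not counted, and a wider window gives every gene more room for a peak. The 20 therefore cannot be set against the 28.4% of all genes within 10 kb. With only peaks at 4-fold or more over background, or from a common lowest tag count of 4.46, 1 member had a peak in MYC replicate 2 in place of 2, since EIF4EBP2 dropped out. Members with a MYC peak numbered 1 to 2 when 1 MYC library was left out. The overlap of ATF4 and MYC at EIF4EBP1 was present in 2 of 4 pairings with at least 1 bp, with 50% of the shorter peak and with centres within 100 bp. The remaining counts stayed within 1.5 times. The planned count test was not run.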
